A study of Mus musculus with 4 samples.

Results

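The stearoyl-CoA desaturase genes Scd1, Scd2, Scd3 and Scd4 were followed on 1-colour Agilent mouse expression arrays by taking every non-control probe that the files name for them. For these 4 genes, of 34844 gene names on the arrays, that rule gave 6 probes of 55681, with 1 each for Scd1, Scd2 and Scd4 and 3 for Scd3. Primary hepatocytes, freshly isolated liver parenchymal cells, came from mice labelled bl6 and were grown in DMEM with 10% FBS. The treated cells received 1 µM GW3965, an LXR agonist, overnight (LXR, the liver X receptors, are sterol-sensing nuclear receptors), and the control cells received DMSO, its solvent (2 arrays per group, lettered a and b). The treatment label itself reads "LXR against GW3965". The medium of both groups also held 0.5% FBS, 5 µM simvastatin, which blocks HMG-CoA reductase, and 100 µM mevalonic acid, the product of that enzyme, so the controls were not untreated cells. The labels do not say whether the arrays of a group came from separate animals or cultures, so every p-value measures only the spread between these arrays.

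Stearoyl-CoA desaturases sit in the membrane of the endoplasmic reticulum and place a double bond in the middle of the saturated acyl chains of palmitoyl-CoA and stearoyl-CoA, giving palmitoleoyl-CoA and oleoyl-CoA. They take electrons from NADH through cytochrome b5 reductase and cytochrome b5. The products go into triglycerides, cholesteryl esters and membrane phospholipids. In mice the genes lie in a cluster on chromosome 19. Scd1 is the main form of adult liver and fat, Scd2 is best known from brain and from the liver of newborn mice, Scd3 from skin and Harderian gland, and Scd4 from heart. Scd1 is a known target of LXR, both directly and through SREBP-1c, the lipogenic transcription factor encoded by Srebf1.

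All 6 probes are 60 bases long, and they lie on chromosome 19 of build mm9 within a span of 179452 bases. They are printed because the probes named Scd3 disagreed, and which Scd transcript each probe reads was not tested. Each is given 5′ to 3′ in lower case throughout, the first one whole and the others by their first 30 bases.
Scd3 A_55_P2099594: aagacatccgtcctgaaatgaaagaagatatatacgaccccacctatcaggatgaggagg
Scd3 A_51_P446045: ttcagggtaggtgtctcaagccaaatccaa
Scd3 A_55_P2052759: ataaagtcaaccataggtcaagaggcagag
Scd2 A_51_P129464: acatttggggatcctctgcagaggagtatt
Scd4 A_55_P2011872: tctgagaacacattgtgctgtgggggctcc
Scd1 A_52_P682382: actcctgggctaagtatctgacagtctcac
The files place the Scd3 probes at chr19:44289995-44290054, chr19:44316703-44316762 and chr19:44318249-44318308 on the plus strand. The Scd2 probe lies at chr19:44381024-44381083 and the Scd4 probe at chr19:44420742-44420801, also on the plus strand. The Scd1 probe lies at chr19:44469387-44469446 on the minus strand. Probe A_55_P2099594 is the only one of the 6 that the files list for transcripts of 2 members, Scd3 and Scd1, and it is called the shared probe from here on. It starts at base 363 of its target, against bases 1666 and 3212 for the other Scd3 probes, 5122 for Scd2, 2580 for Scd4 and 4330 for Scd1. A_51_P446045 and A_55_P2052759 are 1546 bases apart both on the chromosome and along the target, whereas the shared probe and A_51_P446045 are 26708 bases apart on the chromosome and 1303 along the target. No pair of the 6 probes had an identical run longer than 8 bases, and their GC content lay between 41.7% and 45%.

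All 6 probes were well above background on all 4 arrays, none was saturated, and each was spotted once. Values are log2 of the processed signal minus the array's 75th percentile, so they compare one probe between arrays and not different probes with each other. Between 62.5% and 69.1% of all probes were well above background per array, and 35480 probes were fitted with limma. After Benjamini-Hochberg adjustment over them no probe passed 0.05, so 0% were called in either direction and no Scd probe was. The smallest adjusted p of limma was 1.00, and 365 probes had an unadjusted p under 0.05. The number of arrays limits the precision throughout.

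Scd1, the liver's principal stearoyl-CoA desaturase, had a higher signal on both GW3965 arrays than on either DMSO array. The GW3965 arrays read 6.03 and 5.76, and the DMSO arrays read 4.97 and 5.18. The lowest GW3965 value exceeded the highest DMSO value, and the groups did not overlap. Means were 5.89 ± 0.19 with GW3965 and 5.07 ± 0.15 with DMSO (SD, n = 2 each), a log2 difference of 0.82 ± 0.22 (SE) or 1.77-fold. The unadjusted p of limma was 0.0133 and the adjusted p 1.00. Differences at least as high were found for 0.834% of all fitted probes. The processed Scd1 signal, which already has the background subtracted, was 561 to 1190 times that background.

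Scd2, the isoform best known from brain, had the widest gap between group means among the 6 probes and also the widest spread within groups. Its values were 3.41 and 4.65 on the GW3965 arrays, against 2.02 and 2.96 on the DMSO arrays. Both GW3965 values lay above both DMSO values, and array b read higher than array a in each group. That gap of b over a was 1.24 with GW3965 and 0.94 with DMSO. The means were 4.03 ± 0.88 with GW3965 and 2.49 ± 0.67 with DMSO (SD, n = 2 each). The log2 difference was 1.54 ± 0.53 (SE), which is 2.91-fold, with an unadjusted limma p of 0.0354 and an adjusted p of 1.00. Differences at least as high were found for 0.186% of fitted probes. Without GW3965 array b the Scd2 difference was 0.92.

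The Scd2 letters a and b differed alongside several cell type markers. The mean level of the 6 endothelial markers was 0.44 and 1.29 on GW3965 arrays a and b, against 0.40 and 1.16 on DMSO arrays a and b. The 4 cholangiocyte markers measured of 5 averaged 0.37 and 1.30 with GW3965 and 0.53 and 1.39 with DMSO, while Krt7 was not well above background on either a array. The 10 hepatocyte markers, Alb and Hnf4a among them, were all measured and ran the other way, with means of 5.32 and 4.28 with GW3965 and 5.28 and 4.36 with DMSO. The 8 Kupffer cell markers averaged 0.05 and -0.98 with GW3965 and 0.01 and -0.90 with DMSO. The stellate and adipocyte lists had 7 of 8 and 5 of 6 markers measured, without Lrat and Adipoq. Like Krt7, both of these were well above background on the b arrays only. Stellate means were 0.50 and 0.72 with GW3965 and 0.50 and 0.49 with DMSO, and adipocyte means were -3.64 and -4.05 with GW3965 and -4.13 and -4.02 with DMSO. The endothelial, cholangiocyte, hepatocyte and Kupffer cell means thus differed by letter more than by treatment, though not every marker followed its list. Array b read above array a for 5 of the 6 endothelial markers with GW3965 and 4 with DMSO. The same held for 3 of the 4 cholangiocyte markers in each group, and for 0 of the hepatocyte and Kupffer cell markers. Of the 40 markers measured on the 6 lists, 0 had an unadjusted limma p under 0.05. Over all genes that share was 0.658% with a higher mean and 0.175% with a lower one, so 0 of 40 tells little. Their part in the Scd2 values was not tested, and in such bulk RNA fewer cells of a type and less RNA per cell cannot be told apart.

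The 3 probes named Scd3 disagreed. The shared probe, also listed for Scd1, read 1.48 and 1.25 with GW3965, against 0.39 and -0.12 with DMSO. Its groups did not overlap, with means of 1.36 ± 0.16 with GW3965 and 0.13 ± 0.36 with DMSO (SD, n = 2 each). The log2 difference was 1.23 ± 0.26 (SE), or 2.35-fold, with an unadjusted limma p of 0.00528 and an adjusted p of 1.00. Differences at least as high were found for 0.310% of fitted probes. Because the files list this probe for both genes, its signal cannot be assigned to Scd3 rather than Scd1.

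The probes listed for Scd3 alone showed no such gap. Probe A_55_P2052759 read -0.42 and -0.57 with GW3965, against -0.57 and -0.34 with DMSO. The groups overlapped, and the log2 difference was -0.04 ± 0.20 (SE), with an unadjusted limma p of 0.851 and an adjusted p of 1.00. Its processed signal was 11.8 to 14.6 times the subtracted background. Probe A_51_P446045 read -4.06 and -3.39 with GW3965, against -3.94 and -3.78 with DMSO. The GW3965 arrays lay on either side of the DMSO arrays, and the log2 difference was 0.13 ± 0.29 (SE), with an unadjusted limma p of 0.677 and an adjusted p of 1.00. This probe was the dimmest of the 6, with a processed signal of 1.02 to 2.32 times the subtracted background. Its scanner error was up to 12.6% of the signal.

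Scd4, the isoform known from heart, had values of -2.22 and -2.95 with GW3965, against -2.35 and -2.88 with DMSO. The groups overlapped. The log2 difference was 0.03 ± 0.35 (SE), with an unadjusted limma p of 0.928 and an adjusted p of 1.00. It was -0.018 when arrays were centred on their medians. Its processed signal was 3.05 to 3.83 times the subtracted background.

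**Figure D1:**
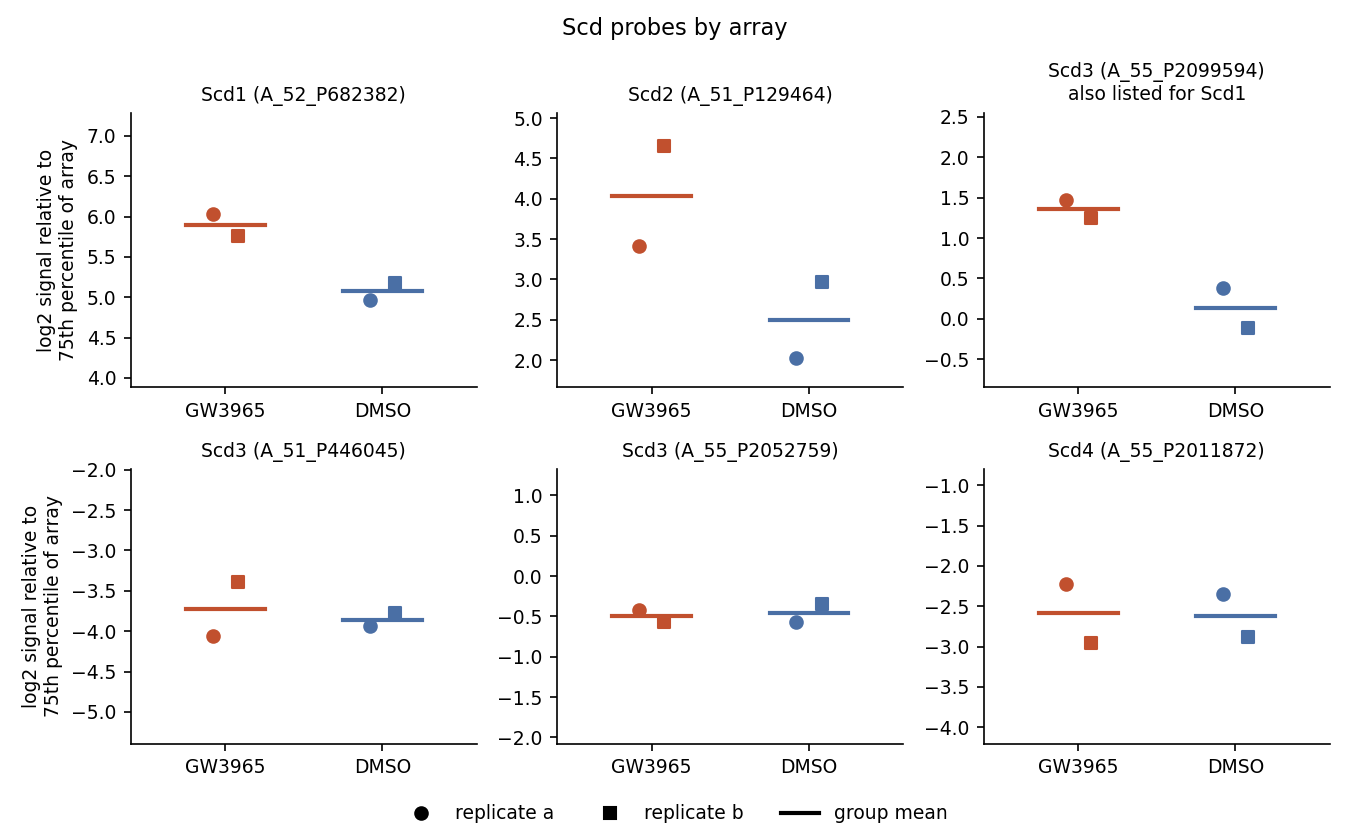
Log2 signal relative to the array's 75th percentile for the 6 Scd probes, with GW3965 left of DMSO, circles for replicate a, squares for replicate b and lines for group means; every panel spans the same number of log2 units. The GW3965 points lie above the DMSO points for Scd1, Scd2 and the shared probe and overlap them for the remaining 3.

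As a family, 3 of 6 probes had both GW3965 arrays above both DMSO arrays and 3 overlapped, as the plot of probes by array shows. Over all fitted probes the same order was seen in 10.1%, and the reverse order in 6.54%. An unadjusted limma p under 0.05 with a higher mean was found for 3 of the 6, against 0.806% of fitted probes, and with a lower mean for none, against 0.223% (adjusted limma p 1.00). The mean was higher with GW3965 for 5 of the 6, against 50.3% of fitted probes. The probes share RNA, arrays and in part targets, so they are not independent of each other. Scd1, Scd2 and the shared probe kept a positive difference under each of 15 alternative settings, most of which could not turn it. No Scd probe passed the adjusted threshold under any of them.

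Ratios of one probe to another on the same array show whether they moved unequally, free of the scaling between arrays. The 6 probes form 15 pairs, and an exact permutation test of 2 arrays against 2 cannot go below p = 0.33. The log2 ratio of the shared probe to A_55_P2052759 was 1.90 and 1.82 with GW3965, against 0.95 and 0.23 with DMSO. The groups did not overlap, and the difference of means was 1.27 (exact two-sided permutation p = 0.33, adjusted over 15 pairs 0.556). To A_51_P446045 the shared probe's log2 ratio was 5.54 and 4.65 with GW3965, against 4.33 and 3.66 with DMSO, a difference of 1.10 (exact p = 0.33, adjusted 0.556). Both GW3965 ratios again exceeded both DMSO ratios, and without GW3965 array a that difference was 0.66.

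The log2 ratio of Scd1 to the Scd3 probe A_55_P2052759 was 6.45 and 6.33 with GW3965, against 5.54 and 5.52 with DMSO, a difference of 0.86 with SDs of 0.086 and 0.0088 (exact p = 0.33, adjusted 0.556). For the shared probe over Scd1, the log2 ratio was -4.55 and -4.51 with GW3965, against -4.58 and -5.30 with DMSO. The groups did not overlap, but DMSO array a stood close to both GW3965 arrays, and the difference of 0.41 had an exact p of 0.33 (adjusted 0.556). It was 0.77 without DMSO array a and 0.052 without DMSO array b. For Scd2 over Scd1 the log2 ratio was -2.61 and -1.11 with GW3965, against -2.95 and -2.22 with DMSO. These groups overlapped, and the difference of 0.72 had an exact p of 0.667 (adjusted 0.833). In all, 9 of the 15 pairs did not overlap and 6 did. The pairs reuse the same 6 probes, and no share over pairs of other probes was computed, so this count is a description.

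**Figure D2:**
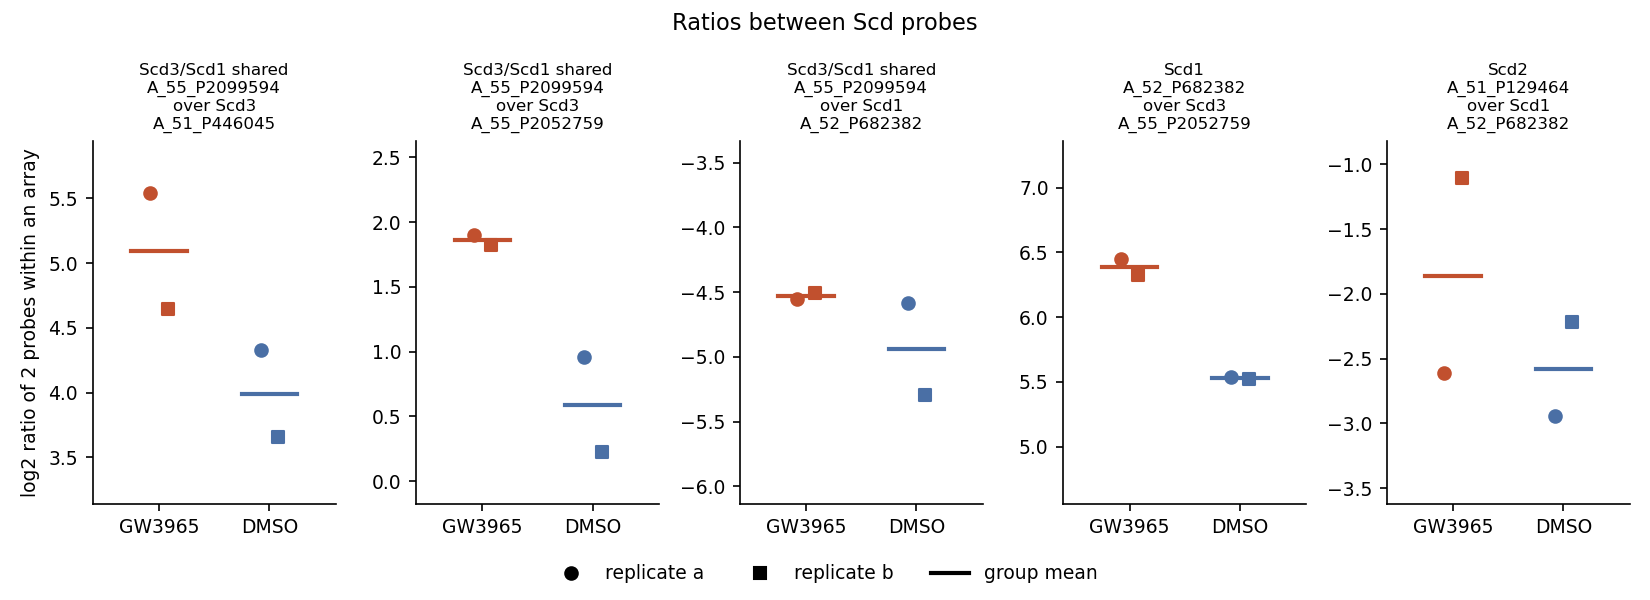
Log2 ratio of 2 Scd probes within an array for 5 of the 15 pairs, GW3965 left of DMSO, with circles for replicate a, squares for replicate b and lines for group means. The first 4 pairs did not overlap between groups, while Scd2 over Scd1 did.

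The cluster was also set beside its neighbours on chromosome 19. A window of 150 kb on both sides held 7 probes of 6 other genes, of which 4 were fitted. Chuk had a log2 difference of -0.07 ± 0.21 (SE), Cwf19l1 of 0.08 ± 0.23 and Bloc1s2 of -0.07 ± 0.31. Sec31b had one of 0.16 ± 0.20 and was the only neighbour with both GW3965 arrays above both DMSO arrays. Pkd2l1 and both Wnt8b probes were not fitted. Thus Scd4 and the Scd3-only probes, with differences between -0.04 and 0.13, lay in the range of these neighbours, and Scd1, Scd2 and the shared probe lay above it. The window was chosen with the Scd values known, so this is a description.

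**Figure D3:**
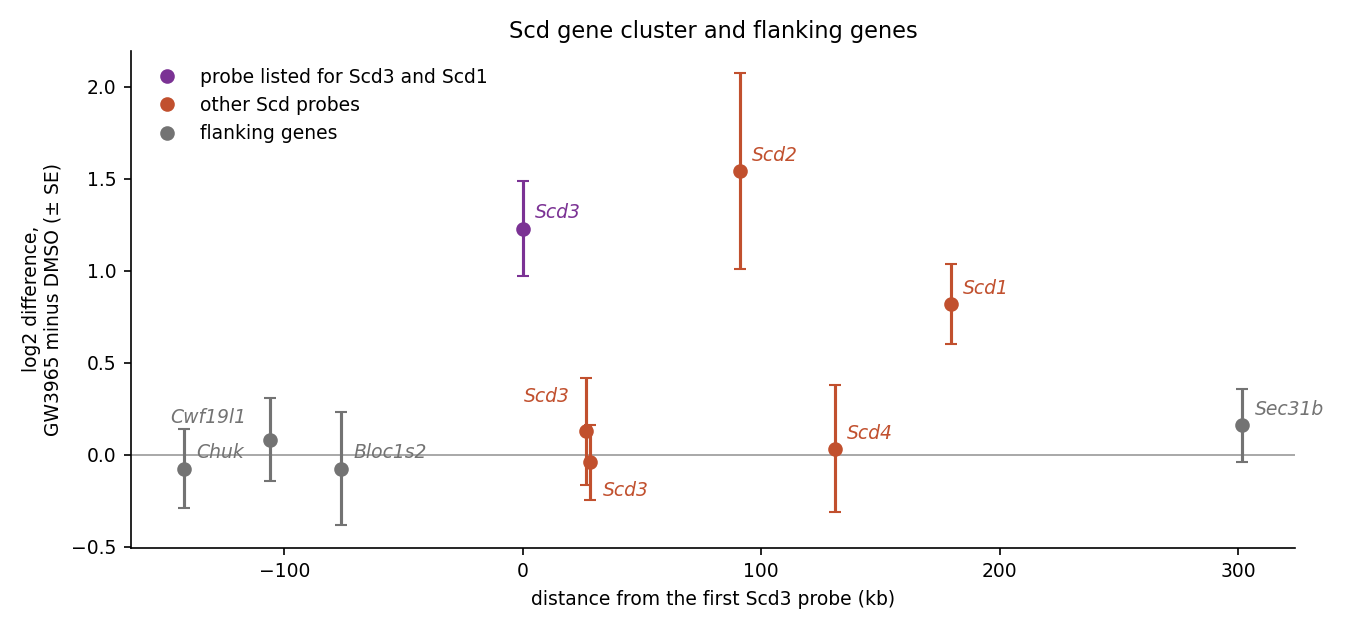
Log2 difference, GW3965 minus DMSO, with its SE, for the Scd probes and the 4 fitted neighbours against distance in kb from the first Scd3 probe. The shared probe, Scd2 and Scd1 stand at 1.23, 1.54 and 0.82, and the remaining Scd probes and the neighbours lie between -0.07 and 0.16.

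RefSeq promoter windows of build GRCm38.p6, from 250 bases before to 50 after the start, were held for Scd3 and Scd4. None was held for Scd1 or Scd2, so their promoters were not searched and no link between motifs and the differences was tested. Searched on both strands, neither window contained the SRE core CACCCCAC, the CCAAT box CCAAT, the E-box CACGTG, the nuclear receptor core AGGTCA or DR4, a direct repeat of that core spaced by 4 bases, which holds the core by construction. Among 32851 promoters, 2.87% held the SRE core, 37.4% the CCAAT box, 7.15% the E-box, 16.3% the receptor core and 0.0152% the repeat.

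The genes around the desaturases were counted in 6 lists with 1 probe per gene. Of 76 genes, 73 were measured, and Degs2, Abcg8 and Cyp7a1 were not well above background in both arrays of a group. None passed the adjusted limma test. The mean was higher with GW3965 for 49 of the 73, against 48.5% of all genes. For 18 genes both GW3965 values exceeded both DMSO values, against 9.41% of all genes, and for 6 both were lower, against 6.55%. An unadjusted limma p under 0.05 was found for 9 genes, each with the higher mean in GW3965, against 0.658% of all genes for that direction and 0.175% for the other (adjusted limma p 1.00). The median log2 difference over the 73 was 0.10, against -0.006 over all genes at 1 probe per gene. The lists were chosen with earlier results of these data known, and 1 of them holds LXR targets, so these counts are a description.

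Of the 6 genes in the electron chain that serves the desaturases, none had both GW3965 arrays above both DMSO arrays. That order was seen in 9.41% of all genes, so this count tells little. The median log2 difference of the list was 0.06. Cyb5a, the microsomal cytochrome b5, read 6.73 and 6.23 with GW3965, against 6.91 and 6.44 with DMSO, a log2 difference of -0.19 ± 0.29 (SE). Cyb5b, the outer mitochondrial form, differed by 0.08 ± 0.24 and the reductase Cyb5r3 by 0.09 ± 0.21. Cyb5r4, a fused cytochrome b5 and reductase, differed by -0.11 ± 0.19 and was the 1 member with both GW3965 arrays below, against 6.55% of all genes. The differences of the whole list stayed between -0.19 and 0.09, and that of Scd1 was 0.82. The list's median turned to -0.091 without DMSO array a and -0.096 without GW3965 array b, and it was 0.13 without DMSO array b and 0.087 without GW3965 array a.

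Among the 5 other desaturases measured, the median log2 difference was 0.07 and 2 had both GW3965 arrays above. Fads2, the delta-6 desaturase of polyunsaturated fatty acids, read 2.42 and 2.06 with GW3965, against 1.66 and 1.32 with DMSO. Its groups did not overlap, and the log2 difference was 0.75 ± 0.25 (SE), with an unadjusted limma p of 0.0297 and an adjusted p of 1.00. Fads1, the delta-5 desaturase, differed by 0.33 ± 0.20 without overlap. Degs1, the dihydroceramide desaturase, differed by 0.07 ± 0.34, and Fads6 by -0.15 ± 0.23. The median was -0.21 without DMSO array a, 0.45 without GW3965 array a and 0.41 without DMSO array b, and Fads1 stood at 0.21 without GW3965 array b.

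The genes that supply palmitoyl-CoA and stearoyl-CoA had a median log2 difference of 0.24 over 16 genes, with 5 above and 1 below. That median was 0.30 without DMSO array a and 0.16 without GW3965 array a. Fasn, which makes palmitate, read -0.23 and 0.69 with GW3965, against -1.37 and -0.29 with DMSO. Both GW3965 arrays were the higher ones, by 1.06 ± 0.49 (SE), and array b exceeded array a in each group. The Fasn difference was 0.52 without DMSO array a, 1.59 without DMSO array b and 0.60 without GW3965 array b. Acsl3, which activates fatty acids to acyl-CoA, read 0.84 and 0.44 with GW3965, against -0.09 and -0.29 with DMSO, a difference of 0.84 ± 0.24. Acsl5 differed by 0.52 ± 0.21 and Acaca, which makes malonyl-CoA, by 0.48 ± 0.21, both without overlap. Elovl6, which elongates palmitoyl-CoA to stearoyl-CoA, differed by 0.29 ± 0.44, and its groups overlapped.

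The genes that use the desaturated products had a median log2 difference of 0.16 over 15 genes, with 3 above and 1 below. Lpcat3, which puts unsaturated acyl chains into phospholipids, read 4.26 and 4.54 with GW3965, against 3.42 and 3.29 with DMSO. Its groups lay apart by 1.05 ± 0.21 (SE), with an unadjusted limma p of 0.00458 and an adjusted p of 1.00. Mogat1, a monoacylglycerol acyltransferase, differed by 0.76 ± 0.36 and Lpin1, a phosphatidate phosphatase, by 0.65 ± 0.23, both without overlap. Gpam, which starts glycerolipid synthesis, differed by 0.45 ± 0.35 with overlapping groups. The difference of Gpam was 0.044 without GW3965 array a, 0.85 without GW3965 array b, 0.68 without DMSO array a and 0.21 without DMSO array b. That of Mogat1 was 1.23 without GW3965 array a and 0.29 without GW3965 array b. The list's median was -0.015 without GW3965 array a and 0.090 without DMSO array a.

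The 21 regulators of Scd transcription had a median log2 difference of 0.06, with 4 above and 2 below. Srebf1 read 0.37 and 0.43 with GW3965, against -0.96 and -0.72 with DMSO. The groups did not overlap, and the difference was 1.24 ± 0.20 (SE), with an unadjusted limma p of 0.00184 and an adjusted p of 1.00. Insig1, which retains the SREBP complex in the endoplasmic reticulum, differed by 0.54 ± 0.26 without overlap. The LXR genes themselves stood at 0.001 ± 0.46 for Nr1h3 (LXR alpha) and -0.021 ± 0.23 for Nr1h2 (LXR beta), both overlapping and with signs that other settings turned. Rxra, the heterodimer partner of LXR, differed by 0.14 ± 0.19 with both GW3965 arrays above, and Mlxipl, which encodes ChREBP, by -0.21 ± 0.19 with both below. Insig1 stood at 0.27 without GW3965 array a and 0.82 without GW3965 array b, and the list's median at -0.010 without GW3965 array b and 0.032 without DMSO array b.

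The direct LXR targets outside fatty acid desaturation had a median log2 difference of 0.35 over 10 genes, with 4 above and 1 below. Abca1, the cholesterol exporter, read 3.31 and 3.85 with GW3965, against 1.46 and 0.55 with DMSO, a difference of 2.58 ± 0.39 (SE). Its groups lay wholly apart, and so did those of Abcg1, a second sterol exporter, at 1.98 ± 0.29. Mylip, which marks the LDL receptor for degradation, differed by 0.99 ± 0.29 and Rnf145, another ubiquitin ligase of sterol control, by 0.79 ± 0.23, both without overlap. Without GW3965 array b the Mylip difference was 0.65. The list's median was 0.58 without DMSO array a, 0.060 without DMSO array b, 0.15 without GW3965 array a and 0.53 without GW3965 array b. Of the 73 list genes, 7 had a larger difference than Scd1.

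**Figure D4:**
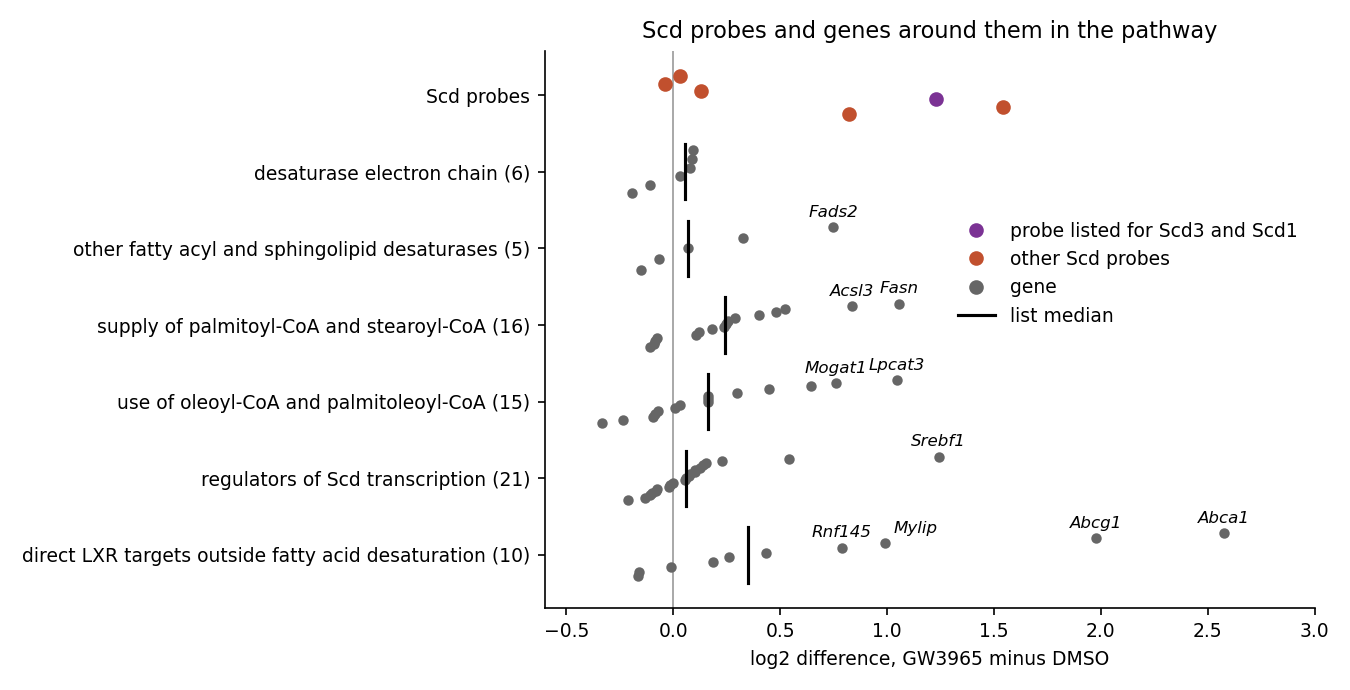
Log2 difference, GW3965 minus DMSO, of the 6 Scd probes and of each measured gene in the 6 lists, with a bar at each list's median. Scd2 at 1.54 and the shared probe at 1.23 lie among the largest values with Srebf1 at 1.24, below Abcg1 at 1.98 and Abca1 at 2.58, and list medians lie between 0.06 and 0.35.

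The genes with the array pattern most like those of Scd1 and Scd2 were ranked by the root mean square difference of the 4 centred log2 values. The 1551 candidate genes were well above background on all 4 arrays and had a range of at least 1 on the log2 scale. Nearest to Scd1 were Tmem231 at 0.143, Acsl3 at 0.154, Pcdhb20 at 0.161, Cldn19 at 0.162 and Rnft2 at 0.184. Nearest to Scd2 were Fasn at 0.272, Mylip at 0.430, Utp14b at 0.464, Klf15 at 0.481 and Lrrc73 at 0.482. These distances are not scaled to a gene's range, which was 4.97 to 6.03 for Scd1 and 2.02 to 4.65 for Scd2. Those of Scd1 and of Scd2 are therefore not compared with each other. Likeness over 4 arrays is a description of these values only.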

How the data were processed

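Total RNA from 4 samples was hybridised to 1-colour Agilent arrays, 1 slide and 1 scan. The deposited scanner files hold spot intensity values from Agilent Feature Extraction 10.7.3.1, per the file headers, whereas the submitters' processing notes name 11.5.1.11; positions are in build mm9. The deposited value table equalled the processed intensity exactly. From there, log2 of the processed signal minus each array's 75th percentile was taken, outlier spots were left out and spots of a probe averaged. A probe was kept if Agilent's flag put it over background on each array of either group (35485 of 55681; 35480 fitted). Groups were compared in limma 3.58.1 under R 4.3.3 (lmFit and eBayes, two-sided, Benjamini-Hochberg over all fitted probes, threshold 0.05), tested on simulated data. Probe ratios were compared with exact permutation tests in Python 3.11.15 with pandas 2.3.3. RefSeq symbols were matched for 26762 probes and 28919 kept the file's name. The text names every Scd probe, up to 4 genes per list with the smallest unadjusted p plus set key genes of lipid synthesis and LXR, and the 5 genes most like Scd1 and Scd2. Neighbours in the window were chosen by position. The members and lists were chosen with earlier results of these data known. Alternatives covered scaling, background correction, filters, limma's prior, a block on the letter, probe summaries and leaving out each array. The letters a and b were not taken as a pairing, since there are only 2 pairs.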

Additional observations from a re-analysis of the deposited data

How the results depend on the processing

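Scd1, Scd2 and the shared probe kept their direction under all 15 alternatives, most of which could not turn it. Their ranges on leaving out 1 array were 0.69 to 0.95, 0.92 to 2.16 and 0.98 to 1.48. Differences near 0 changed sign. For A_55_P2052759, taking 1 probe per gene replaced it with the shared probe at 1.23, the mean of the Scd3 probes gave 0.44, and leaving out 1 array gave -0.15 to 0.072. Leaving out 1 array gave -0.21 to 0.46 for A_51_P446045, -0.33 to 0.40 for Scd4, and -0.033 to 1.47 for Scd2 over Scd1; centring on medians gave -0.018 for Scd4. With the letter as a replicate block, 16 probes passed the adjusted limma threshold; same-letter deviations correlated at 0.69 across probes, but 2 pairs do not settle a pairing, and the adjusted p was 0.109 for Scd2, 0.234 for the shared probe and 0.563 for Scd1. With 1 array left out, the lone array assumed to vary like the other group, between 0 and 102 probes passed: 27 without DMSO a, 102 without DMSO b, 55 without GW3965 b and 0 without GW3965 a, no Scd probe among them. Without adjustment, 365 probes had p under 0.05. Of 90 recomputed medians of the 6 lists, 15 moved by more than the replicate spread. With all 4 arrays in, the product-use list stood at 0.047 with the mean of a gene's probes and the regulators at 0.0097 with median centring. The palmitoyl-CoA and stearoyl-CoA supply list stood at 0.27 with quantile normalization and 0.19 with median centring. Of the 27 named list genes, 19 kept their sign and 8 did not. Leaving out 1 array gave -0.45 to 0.059 for Cyb5a, -0.11 to 0.26 for Cyb5b, -0.035 to 0.22 for Cyb5r3, -0.27 to 0.41 for Degs1, -0.16 to 0.74 for Elovl6, -0.36 to 0.060 for Fads6, -0.17 to 0.13 for Nr1h2 and -0.51 to 0.51 for Nr1h3. The mean of a gene's probes gave -0.0094 for Cyb5r3 and 0.030 for Fads6, quantile normalization 0.0052 and normexp 0.0015 for Nr1h2, and median centring -0.050 for Nr1h3. The cause of these shifts was not tested. Signal over background limits A_51_P446045 most.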
